A study of Rattus norvegicus with 7 samples.

Results

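The expression of 41 DNA replication genes was followed in rat mesenchymal stem cells (rMSCs) 4 h after they were seeded on 3 surfaces. The genes were chosen by symbol for their textbook roles in origin licensing, at the replication fork and in nucleotide supply. All 41 symbols were found among the 17147 symbols listed for each of 7 RNA-seq libraries, and all 41 were among the 9467 genes tested. The surfaces were a film of ISB-P, a polyurethane copolymer of polycaprolactone made with propoxylated isosorbide (3 libraries), a film of polycaprolactone itself, PCL (3 libraries), and the tissue culture plate, TCP (1 library). The cells were primary, unmodified and untreated cells from bone marrow, grown in a serum-containing medium. The methods name no medium for the 4 h on the surfaces. For these cells the methods describe isolation from 1 male Sprague-Dawley rat, 6 weeks old, though the same passage also speaks of rats. Whether the libraries of a film come from separate animals, isolations or cultures is not stated, and their spread may be technical. Each surface received 20000 cells. The films were 16 mm in diameter and had been sterilized by ethylene oxide (EO) gas. PCL and ISB-P libraries carry the numbers 1 to 3, and the labels do not say what a number stands for.

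A cell copies its genome once per cycle, in S phase. Before S phase, the origin recognition complex (ORC), Cdc6 and Cdt1 load the ring-shaped helicase made of Mcm2 to Mcm7 onto origins, which is called licensing, and geminin (Gmnn) binds Cdt1 and prevents a second round. At the start of S phase Cdc45 and the GINS complex join the helicase and activate it, RPA coats the single strands, DNA polymerase alpha with primase lays down primers, and the clamp loader RFC places the sliding clamp Pcna, which holds polymerases delta and epsilon on the template. Fen1 and DNA ligase 1 trim and seal the Okazaki fragments of the lagging strand. Ribonucleotide reductase, thymidylate synthase and thymidine kinase supply the deoxynucleotides. Most of these genes are textbook targets of E2F factors, which are released from retinoblastoma proteins late in G1, so their transcripts are used as a sign of cells entering or passing S phase.

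Values are FPKM, that is, fragment numbers divided by transcript length and by library size, which allow levels of different genes to be compared per length. They summed to between 539393 and 660124 over all genes of a library, and the number of reads is unknown. Of 11 mesenchymal stem cell markers, 10 were tested. The surface glycoprotein Thy1 ranged from 925 to 1210 FPKM and Vim from 3675 to 5414 FPKM over the 7 libraries. Nt5e and Eng, of the same list, were much lower, at 8.13 to 12.9 and 11.1 to 19.2 FPKM. Col1a2 was listed at 0 in all 7 libraries beside Col1a1 at 3868 to 10406 FPKM, so a 0 may not mean absence. The 11 haematopoietic markers summed to 150.1 FPKM on TCP and to between 47.1 and 56.3 FPKM on the films. Cd34 was at 0 everywhere, and Ptprc, the pan-leukocyte marker, at 1.48 FPKM on TCP and 0.433 to 1.23 FPKM on the films. Lyz2 was at 72.9 FPKM on TCP and 16.6 to 27.2 FPKM on the films, and Cd14 at 31.7 FPKM and 10.9 to 16.6 FPKM. The 6 endothelial markers summed to 0.631 FPKM on TCP and to between 0.354 and 0.752 FPKM on the films, with Emcn at 0 in all 7 libraries.

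The sequences around the starts of these genes were not used to choose them. RefSeq promoter windows (assembly GRCr8, 250 bases before to 50 bases after the transcript start) were found for 34 of the 41 genes, as 36 windows, since Uhrf1 has 3. Orc1, Cdc6, Mcm4, Gins4, Rpa3, Rrm2 and E2f1 had no entry in the table. E2F motifs spelled TTTCCCGC, TTTGGCGC or TTTCGCGC, searched on both strands, were present in 15 of the 36 windows (41.7%), against 577 of all 33469 windows (1.72%) and 278 of 7566 windows of tested genes (3.67%). The CCAAT box, CCAAT or ATTGG, was present in 25 of the 36 windows (69.4%), against 37.5% of all windows. TTTCGCGC was the most frequent E2F motif among these windows, in 9 of 36 (25.0%, against 0.326% of all), followed by TTTGGCGC in 8 (22.2%, against 0.493%) and TTTCCCGC in 6 (16.7%, against 0.974%). A match is a run of letters and not a measured binding site. Printed here are the windows of the 3 genes that hold an E2F motif and differed most between libraries numbered 3 and 1, Pola1, Tyms and Cdt1, and that of Mcm5, the only one of the 36 windows with all 4 motifs, which was chosen after the matches were seen. They read 5′ to 3′ on the gene's strand, with the motifs in capitals.
Pola1, chrX:62342306-62342605, minus strand: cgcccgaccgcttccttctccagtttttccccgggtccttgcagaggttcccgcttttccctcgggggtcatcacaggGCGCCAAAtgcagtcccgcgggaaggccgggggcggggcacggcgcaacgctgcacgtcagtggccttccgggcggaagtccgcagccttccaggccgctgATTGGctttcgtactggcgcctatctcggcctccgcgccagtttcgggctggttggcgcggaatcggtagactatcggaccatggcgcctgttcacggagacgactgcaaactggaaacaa
Tyms, chr9:120776034-120776333, minus strand: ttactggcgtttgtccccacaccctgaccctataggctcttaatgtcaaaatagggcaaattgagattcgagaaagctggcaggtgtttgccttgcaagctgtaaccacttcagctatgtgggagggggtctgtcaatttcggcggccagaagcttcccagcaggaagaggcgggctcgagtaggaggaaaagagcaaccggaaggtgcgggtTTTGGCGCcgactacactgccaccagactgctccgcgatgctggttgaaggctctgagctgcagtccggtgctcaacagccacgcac
Cdt1, chr19:67528999-67529298, plus strand: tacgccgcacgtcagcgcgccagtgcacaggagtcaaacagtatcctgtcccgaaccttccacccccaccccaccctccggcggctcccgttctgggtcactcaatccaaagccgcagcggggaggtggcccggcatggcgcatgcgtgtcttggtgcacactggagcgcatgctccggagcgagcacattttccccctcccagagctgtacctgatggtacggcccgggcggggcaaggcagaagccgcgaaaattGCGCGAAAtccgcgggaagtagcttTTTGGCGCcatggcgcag
Mcm5, chr19:13488563-13488862, plus strand: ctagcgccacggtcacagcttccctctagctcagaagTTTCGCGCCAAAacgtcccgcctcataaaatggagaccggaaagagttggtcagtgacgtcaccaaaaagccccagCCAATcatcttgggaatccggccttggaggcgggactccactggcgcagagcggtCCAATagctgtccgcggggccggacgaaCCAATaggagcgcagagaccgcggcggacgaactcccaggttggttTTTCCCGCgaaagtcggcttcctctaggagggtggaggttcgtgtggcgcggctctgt

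Distances are given to the leftmost base of a motif, with the start counted as 1. In Pola1 the TTTGGCGC motif lies on the opposite strand, 172 bases before the start, and a reversed CCAAT box 71 bases before it. Tyms holds the same motif on the gene's strand 37 bases before the start. In Cdt1 both motifs lie after the start, at offsets of 8 and 33 bases. In Mcm5 the first run of capitals is a TTTCGCGC and an opposite-strand TTTGGCGC that overlap, 213 and 209 bases before the start, and 3 CCAAT boxes and a TTTCCCGC follow. Among the genes without an E2F motif in their window were Pcna, Prim1 and Rfc4, which were among those that differed most between replicate numbers.

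All 41 genes had values above 0 in every library. In the TCP library Gins1 and Orc1 (0.979 FPKM) were below 1 FPKM, the limit that the filter applied to the films. On the films the values of single libraries ranged from 4.51 FPKM (Pole, the catalytic subunit of DNA polymerase epsilon) to 186 FPKM (Pcna), and in the TCP library from 0.823 FPKM (Gins1) to 39.2 FPKM (Pcna). Together the 41 genes made up 0.0496% of the summed FPKM of the TCP library (267 FPKM), between 0.173% and 0.191% on PCL (941 to 1141 FPKM) and between 0.170% and 0.195% on ISB-P (1005 to 1285 FPKM). The sum was thus lower in the TCP library than in each of the 6 film libraries, and the ranges of the films overlapped.

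**Figure D1:**
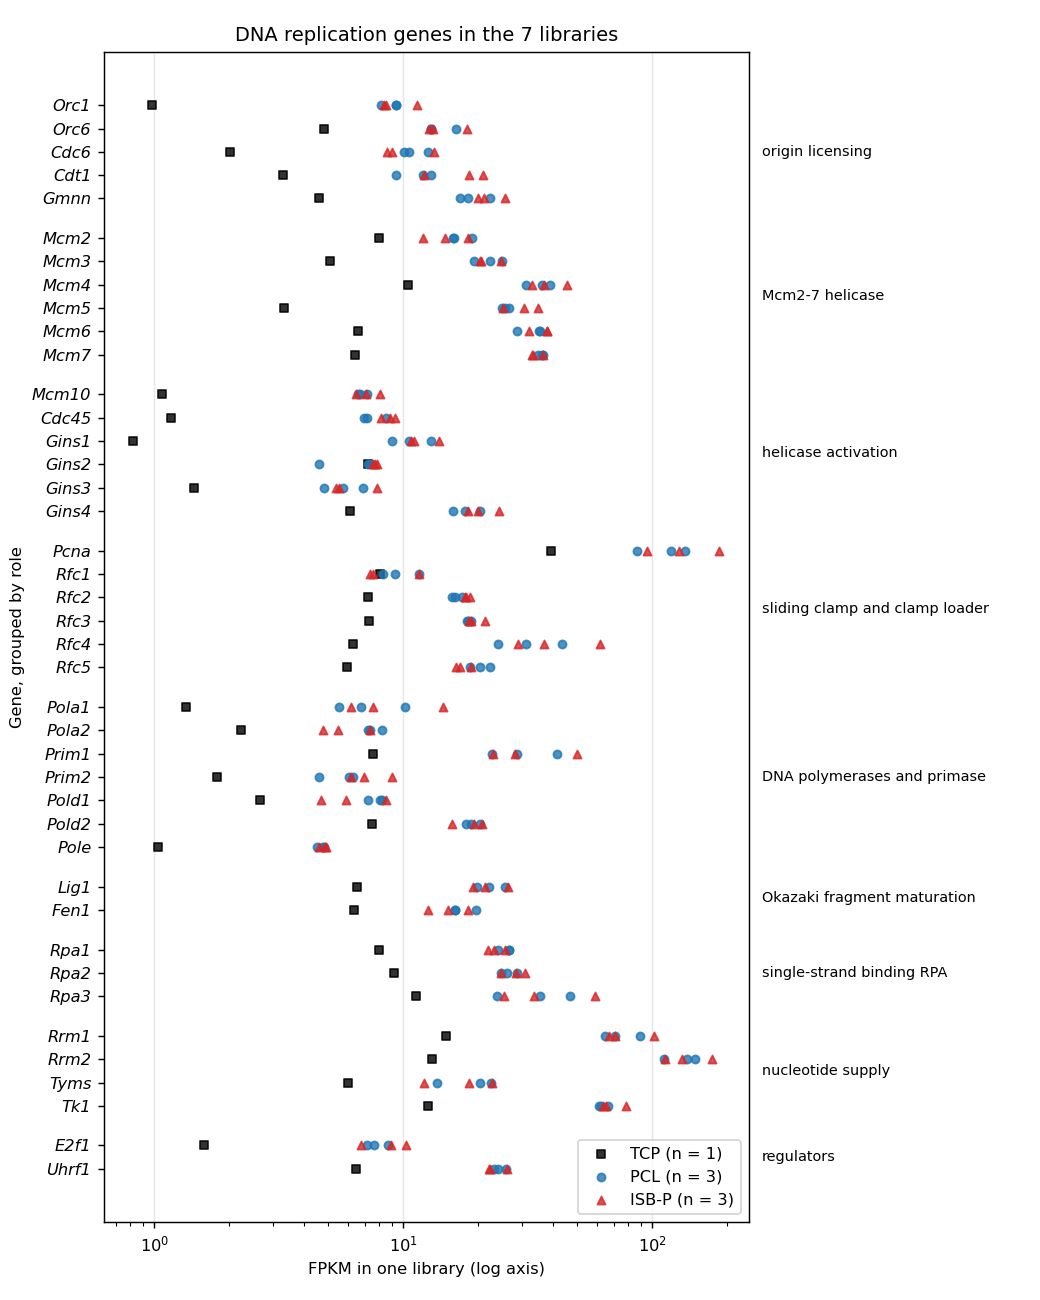
FPKM (log axis) of each of the 41 genes, grouped by role; each symbol is 1 library (TCP 1, PCL 3, ISB-P 3). For 39 of 41 genes the TCP library lies to the left of all 6 film libraries, and for 39 of 41 genes the PCL and ISB-P libraries overlap.

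The question put to the TCP library was where the culture plate stands beside the films. On the log2(FPKM + 1) scale, 38 of the 41 genes were more than 2-fold lower on TCP than the mean of the PCL libraries, against 5.25% of all tested genes, and 37 were more than 2-fold lower than the mean of the ISB-P libraries, against 7.93% of all tested genes. Both counts share the TCP library. For 39 of the 41 genes the TCP value was below all 6 film libraries, which held for 29.7% of all tested genes. The filter on low values used the film libraries alone, and all 41 genes passed it. The median difference over the genes was -1.62 (log2) against PCL and -1.71 against ISB-P, beside -0.06 and -0.06 over all tested genes. Scaling to a common total raised the median of all genes by 0.17 against ISB-P, and the median of the replication genes relative to it was -1.64, beside -1.65 in the values as deposited. The genes short of 2-fold were Gins2, Rfc1 and Mcm2 against PCL, and the same genes with Pold1 against ISB-P. In FPKM, the PCL mean was a median of 3.47 times the TCP value, from 0.888 times (Gins2) to 13.2 times (Gins1). With 1 TCP library there is no test, the library and the surface cannot be told apart, and fewer cells in S phase and less of these RNAs per cell cannot be told apart in bulk RNA. The haematopoietic markers moved the other way in the same library, with 5 of the 6 tested more than 2-fold higher on TCP than on PCL, beside 293 of all 9467 tested genes. Lyz2, the lysozyme of myeloid cells, was at 72.9 FPKM on TCP against 16.6 to 27.2 FPKM on the films. The part of these markers in the result was not tested.

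**Figure D2:**
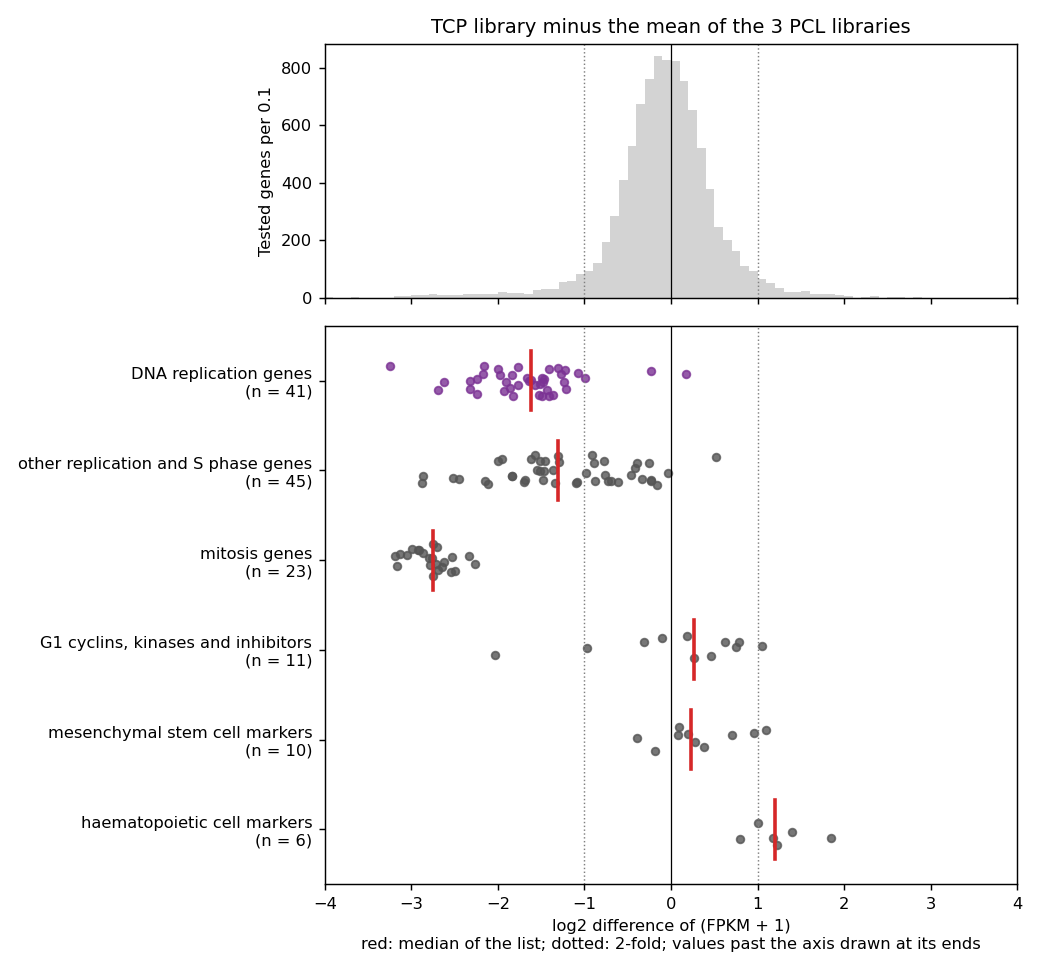
Difference on the log2(FPKM + 1) scale between the TCP library and the mean of the 3 PCL libraries; above, all 9467 tested genes in steps of 0.1, and below, 1 point per gene with the median of each list as a red bar and 2-fold as dotted lines. The replication genes have a median of -1.62 and the mitosis genes of -2.75, while the G1, stem cell and haematopoietic lists have medians of 0.27, 0.23 and 1.20.

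Among the licensing genes, all 5 were more than 2-fold lower on TCP than on PCL, and the PCL mean was between 2.91 times (Orc6) and 9.14 times (Orc1) the TCP value. Geminin, the inhibitor of licensing, was the most abundant of the 5 in each film library and below Orc6 on TCP. It had 4.61 FPKM on TCP, 18.1, 16.9 and 22.4 FPKM on PCL and 21.2, 20.04 and 25.6 FPKM on ISB-P, here and throughout in the order of the replicate numbers. Cdt1, the loading factor it binds, had 3.29 FPKM on TCP, 12.9, 11.97 and 9.38 FPKM on PCL and 20.9, 18.3 and 12.1 FPKM on ISB-P. Within each film Cdt1 was lowest and Gmnn highest in the library numbered 3, and in each of the 3 same-numbered pairs Cdt1 had the higher value on ISB-P. Orc1, the largest ORC subunit, was at 0.979 FPKM on TCP and between 8.14 and 11.4 FPKM on the films. Cdc6 was at 2.02 FPKM on TCP and between 8.59 and 13.3 FPKM on the films, and Orc6 at 4.82 FPKM and between 12.7 and 17.97 FPKM.

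The 6 subunits of the Mcm helicase ranged on the films from 11.98 FPKM (Mcm2) to 45.3 FPKM (Mcm4). Of these, 5 were more than 2-fold lower on TCP than on PCL, and Mcm2 was just short of it, at -0.99 on the log2(FPKM + 1) scale. Mcm4, the subunit with the highest mean over the 7 libraries though not the highest in PCL replicate 1 or ISB-P replicate 1, had 10.4 FPKM on TCP, 31.2, 36.1 and 38.99 FPKM on PCL and 32.9, 36.8 and 45.3 FPKM on ISB-P. Mcm5 had the largest ratio of the 6, with 3.33 FPKM on TCP against 26.7, 25.7 and 24.8 FPKM on PCL and 34.8, 30.7 and 25.1 FPKM on ISB-P. Mcm2 had 7.998 FPKM on TCP, 18.9, 16.1 and 15.9 FPKM on PCL and 18.2, 14.7 and 11.98 FPKM on ISB-P. These subunits of 1 ring did not share 1 ratio between TCP and the films, since the PCL mean was 2.12 times the TCP value for Mcm2 and 7.72 times for Mcm5, with the other 4 between 3.39 and 5.61 times.

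Of the genes that activate the helicase, Mcm10, Cdc45 and the 4 GINS subunits, 5 of 6 were more than 2-fold lower on TCP than on PCL. Gins1 showed the largest ratio of all 41 genes, at 0.823 FPKM on TCP, 9.04, 10.5 and 12.98 FPKM on PCL and 11.04, 10.7 and 13.99 FPKM on ISB-P. Gins2, a subunit of the same complex, was at 7.22 FPKM on TCP, 4.59, 7.24 and 7.39 FPKM on PCL and 7.59, 7.71 and 7.86 FPKM on ISB-P, so that its TCP value fell inside the range of the films. Gins2 lies over Gse1 in GRCr8, a gene with no row of that symbol in the tables, and whether reads were counted by strand is not given in the sources used here. Gins4, the most abundant of the 6 in each film library and below Gins2 on TCP, was at 6.13 FPKM on TCP, 17.8, 15.9 and 20.3 FPKM on PCL and 20.1, 18.1 and 24.3 FPKM on ISB-P. Gins3 had 1.44 FPKM on TCP, 4.79, 5.74 and 6.87 FPKM on PCL and 5.53, 5.36 and 7.83 FPKM on ISB-P. Mcm10, which binds the activated helicase, and Cdc45 were at 1.07 and 1.17 FPKM on TCP and between 6.43 and 9.25 FPKM in the film libraries.

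Pcna, the sliding clamp, was the most abundant of the 41 genes on TCP and, with Rrm2, on the films. It had 39.2 FPKM on TCP, 86.8, 119.5 and 136 FPKM on PCL and 95.8, 128 and 186 FPKM on ISB-P. Of the RFC clamp loader, Rfc4 had 6.31 FPKM on TCP, 23.99, 31.2 and 43.4 FPKM on PCL and 28.8, 36.9 and 61.8 FPKM on ISB-P. For both genes the library numbered 3 was the highest and that numbered 1 the lowest on each film, and each ISB-P library was above the PCL library of the same number. Rfc1, the large subunit of the loader, was the other gene whose TCP value did not fall below all film libraries, at 8.06 FPKM on TCP, 8.32, 9.27 and 11.6 FPKM on PCL and 7.59, 7.33 and 11.6 FPKM on ISB-P. Rfc2, Rfc3 and Rfc5, the remaining small subunits, were between 5.94 and 7.29 FPKM on TCP and between 15.6 and 22.2 FPKM on the films. The PCL mean was 5.21 times the TCP value for Rfc4 and 1.21 times for Rfc1.

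DNA polymerase alpha and primase form 1 complex of 4 subunits, and its genes differed widely in level. Prim1, the catalytic primase subunit, had 7.55 FPKM on TCP, 22.6, 28.6 and 41.4 FPKM on PCL and 23.02, 28.1 and 49.9 FPKM on ISB-P. Prim2, the regulatory primase subunit, had 1.79 FPKM on TCP, 4.58, 6.08 and 6.28 FPKM on PCL and 6.16, 6.95 and 9.02 FPKM on ISB-P. Both were highest in the library numbered 3 of each film. Pola1, the polymerase subunit, had 1.34 FPKM on TCP, 5.51, 6.79 and 10.2 FPKM on PCL and 6.18, 7.54 and 14.5 FPKM on ISB-P, and was also highest in the libraries numbered 3. Pola2, its accessory subunit, had 2.23 FPKM on TCP, 8.20, 7.20 and 7.34 FPKM on PCL and 7.37, 5.49 and 4.78 FPKM on ISB-P. On ISB-P the Pola2 values ran opposite to those of Pola1, with the lowest Pola2 and the highest Pola1 in the library numbered 3, and in each same-numbered pair Pola2 had the lower value on ISB-P. Pold1 and Pole, the catalytic subunits of polymerases delta and epsilon, were between 4.51 and 8.55 FPKM on the films and at 2.66 and 1.03 FPKM on TCP, and Pold2, an accessory subunit of polymerase delta, was between 15.7 and 20.7 FPKM on the films and at 7.51 FPKM on TCP. All 7 genes of this group were more than 2-fold lower on TCP than on PCL.

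The 2 genes of Okazaki fragment maturation both lay lower on TCP than in each film library. Lig1, which seals the fragments, had 6.496 FPKM on TCP, 25.7, 19.8 and 22.1 FPKM on PCL and 26.3, 18.99 and 21.3 FPKM on ISB-P. Fen1, the flap endonuclease, had 6.33 FPKM on TCP, 19.6, 16.1 and 16.1 FPKM on PCL and 18.2, 15.2 and 12.6 FPKM on ISB-P. Each was highest in the library numbered 1 of both films. In GRCr8 Lig1 lies over Zswim9 and Fen1 over Tmem258, neither of which has a row by that symbol in the tables.

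The RPA trimer that coats single-stranded DNA had all 3 genes more than 2-fold lower on TCP, and the PCL mean was between 2.88 times (Rpa2) and 3.22 times (Rpa1) the TCP value. Rpa3, the smallest subunit, had 11.3 FPKM on TCP, 23.8, 35.5 and 46.97 FPKM on PCL and 25.4, 33.6 and 58.7 FPKM on ISB-P. Rpa1, the large DNA-binding subunit, had 7.99 FPKM on TCP, 23.9, 26.6 and 26.6 FPKM on PCL and 21.95, 23.1 and 25.6 FPKM on ISB-P. Over the film libraries Rpa3 spanned 23.8 to 58.7 FPKM and Rpa1 21.96 to 26.6 FPKM. Rpa2 lay between 24.7 and 31.0 FPKM on the films and at 9.20 FPKM on TCP.

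Nucleotide supply held abundant transcripts, and on average over the 7 libraries Rrm2, Pcna, Rrm1 and Tk1 had the highest levels of the 41 genes. Rrm2, the regulated small subunit of ribonucleotide reductase, had 13.02 FPKM on TCP, 111, 138 and 149 FPKM on PCL and 112, 131 and 175 FPKM on ISB-P, and the PCL mean was 10.2 times the TCP value. Rrm1, the large subunit, was at 14.9 FPKM on TCP and between 64.4 and 101 FPKM on the films, with a PCL mean 5.04 times the TCP value. Rrm2 thus exceeded Rrm1 in each film library and lay below it in the TCP library. Tk1, the cytosolic thymidine kinase, had 12.6 FPKM on TCP, 66.5, 62.3 and 61.3 FPKM on PCL and 78.3, 65.3 and 63.7 FPKM on ISB-P. Tyms, the thymidylate synthase, had 5.99 FPKM on TCP, 13.7, 20.4 and 22.6 FPKM on PCL and 12.2, 18.4 and 22.8 FPKM on ISB-P. Tk1 was highest in the libraries numbered 1 and Tyms in those numbered 3. Rrm2 overlaps Cys1 in GRCr8, a gene listed at no more than 1.15 FPKM in any library.

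Of the regulators, Uhrf1, which brings DNA methylation to newly copied DNA, had 6.46 FPKM on TCP, 25.95, 24.1 and 23.1 FPKM on PCL and 26.2, 22.3 and 22.1 FPKM on ISB-P. E2f1, an activator of replication genes, had 1.58 FPKM on TCP, 8.67, 7.62 and 7.18 FPKM on PCL and 10.3, 8.93 and 6.76 FPKM on ISB-P. Both were more than 2-fold lower on TCP than on either film, and both were highest in the libraries numbered 1. Arrdc5, which overlaps Uhrf1 in GRCr8, was listed at 0 in all 7 libraries.

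The comparison of ISB-P with PCL asked whether the copolymer changes the transcriptome of cells early after adhesion. None of the 41 genes differed between the films at an adjusted p under 0.05 (limma on log2(FPKM + 1), Benjamini-Hochberg over 9467 genes, 3 libraries per film), beside 1.72% of all tested genes. In the same test 0 of the 41 had an unadjusted p under 0.05, beside 1145 of the 9467 tested genes. No alternative without the replicate number called any of the 41. The differences ranged from -0.34 (Pola2) to 0.52 (Cdt1) on the log2 scale, with a median of 0.08 beside 0.02 over all tested genes. The 95% interval of the difference lay within 2-fold for 38 genes and reached past 2-fold for Cdt1 (-0.01 to 1.05), Rfc4 (-0.44 to 1.10) and Pola1 (-0.53 to 1.03). The libraries of the films did not overlap for 2 genes, Gins2 and Rfc2, both higher on ISB-P, beside 17.7% of all tested genes. Of the 41 genes, 27 had a higher mean on ISB-P, beside 52.9% of all tested genes, and with libraries scaled to a common total the count was 15, beside 33.6% of all tested genes. That scaling moved the median of all genes by -0.10, and the replication genes stood 0.05 above it, against 0.06 in the values as deposited.

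Libraries with the same number resembled each other across the films. When the fit treated the number as a block, 4 genes were called, beside 24.4% of all tested genes. Cdt1 was higher on ISB-P by 0.52 ± 0.09 (log2, SE, adjusted p = 0.0040 by limma with the block), Rfc4 by 0.33 ± 0.08 (adjusted p = 0.020 by limma) and Prim2 by 0.33 ± 0.09 (adjusted p = 0.031 by limma). Pola2 was lower, at -0.34 ± 0.10 (adjusted p = 0.037 by limma). Without the block, leaving out single libraries moved the difference of Rfc4 between 0.03 (without ISB-P replicate 3) and 0.57 (without ISB-P replicate 1), with 0.13 without PCL replicate 1 and 0.55 without PCL replicate 3. That of Prim2 was 0.19 and that of Pola2 -0.22 without ISB-P replicate 3, and that of Prim2 was 0.21 without PCL replicate 1. With the block and 1 library left out, which was tried after the values were seen, Cdt1 and Rfc4 were called in all 6 fits. Prim2 was not called without replicate 1 of either film, and Pola2 was called only without replicate 1 of either film. Leaving out either library of a number gave the same difference, for Cdt1 0.46, 0.50 and 0.62 for the numbers 1, 2 and 3. The 6 fits therefore give only 3 different estimates, and each of these shares a same-numbered pair with each of the others. All reuse the pairs of the full fit, so they are not separate support for its calls. In the full fit without the block the adjusted p of Cdt1, Rfc4, Prim2 and Pola2 was 0.42, 0.86, 0.57 and 0.52. Each of the 4 differed in the same direction in all 3 same-numbered pairs. The fit with the block rests on these pairs, so this is not separate support for the 4 calls. A shared direction in all 3 pairs held for 17 genes toward higher and 6 toward lower values on ISB-P (41.5% and 14.6%, beside 30.5% and 27.7% of all tested genes). With libraries scaled to a common total, Cdt1 was the only gene called higher with the block, and 6 were called lower, Pola2 among them with Mcm2, Rfc5, Pold1, Fen1 and Rpa1. Cdt1 and Pola2 were the genes called under all 4 scalings compared with the block.

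**Figure D3:**
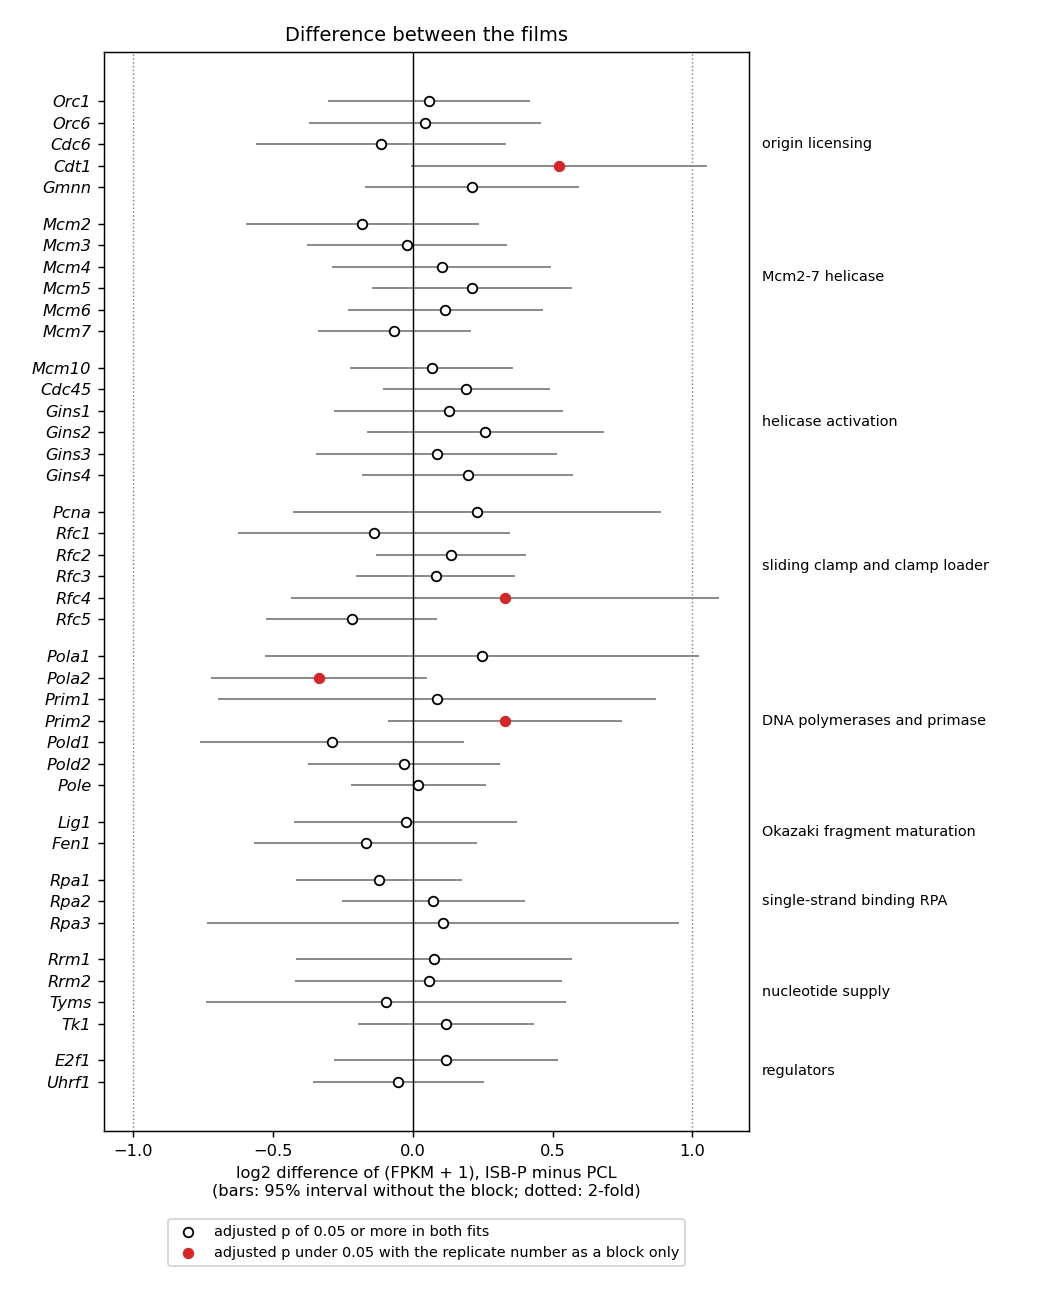
Difference between the films, ISB-P minus PCL, on the log2(FPKM + 1) scale for each of the 41 genes; points are the fitted difference, bars its 95% interval without the replicate block (3 libraries per film) and dotted lines 2-fold. No gene is called without the block; Cdt1, Rfc4, Prim2 (higher) and Pola2 (lower) are called with it and are drawn filled.

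By replicate number, the differences among these genes between the libraries numbered 3 and 1 ranged from -0.58 (Cdt1) to 1.07 (Rpa3) on the log2 scale. The deviations of the 41 genes from their film means correlated between same-numbered libraries at r = 0.917, 0.532 and 0.945 for the numbers 1, 2 and 3, a description across genes that are not independent. With film and number in 1 fit, 24 of the 41 genes (58.5%) differed by number (limma's moderated F test, adjusted p under 0.05 over 9467 genes), beside 58.4% of all tested genes, so their share was that of all genes. Of the 41 genes, 17 were called higher at number 3 than at number 1, beside 3524 of the 9467 tested genes (37.2%). Called lower were 7 of the 41, beside 2003 of the 9467 (21.2%). The median difference was 0.22, which is 0.12 above that of all tested genes (0.09). Upper quartile scaling shifted the median of all genes by -0.17 and left the replication genes 0.11 above it, and the calls were then 9 higher and 13 lower. The split turned over all tested genes too, from 63.8% of the calls higher at number 3 in the values as deposited to 45.1% with that scaling.

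Of the 41 genes, 21 had higher and 16 lower values at number 3 under all 4 scalings, whether called or not. Called higher under all 4 scalings were Rpa3, Prim1, Rfc4, Pola1, Pcna, Tyms, Rrm1 and Rfc1. Rpa3 had the largest difference, 1.07 ± 0.11 (log2, SE, adjusted p = 0.00057 by limma), followed by Prim1 at 0.96 ± 0.10 and Rfc4 at 0.95 ± 0.10 (both with an adjusted p of 0.00057 by limma). Pola1 was higher by 0.94 ± 0.12, Pcna by 0.80 ± 0.10 and Tyms by 0.77 ± 0.10. Rrm1 was higher by 0.53 ± 0.09 and Rfc1 by 0.49 ± 0.11. The 2 films gave the same sign for 40 of the 41 genes, beside 88.5% of all tested genes, and number 2 lay between 1 and 3 for 30 of 41 (73.2%, beside 70.2% of all tested genes).

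Called by number under all 4 scalings with lower values at 3 than at 1 were Cdt1, Mcm2, E2f1, Fen1, Lig1, Mcm3 and Mcm6. Cdt1 differed by -0.58 ± 0.11 (log2, SE, adjusted p = 0.0047 by limma), Mcm2 by -0.40 ± 0.11 (adjusted p = 0.029 by limma) and E2f1 by -0.39 ± 0.11 (adjusted p = 0.041 by limma). Fen1 differed by -0.38 ± 0.10, Lig1 by -0.25 ± 0.09 and Mcm3 by -0.21 ± 0.09. Mcm6, Mcm3 and Lig1 were lowest at number 2, at -0.27, -0.31 and -0.40 relative to number 1, and Mcm6 differed by only -0.01 ± 0.09 between 3 and 1. The calls depended on single libraries, as they did over all genes. The shares in brackets are of all tested genes, and the counts are of the 41. Without ISB-P replicate 1, 15 genes were called (beside 41.3%), and 1 gene, Cdt1, was called lower at number 3 (beside 11.0%). Without PCL replicate 1, 16 were called (beside 47.6%) and 4 were called lower (beside 17.0%). Without PCL replicate 3, 33 were called (beside 73.9%) and 13 were called lower (beside 31.1%).

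**Figure D4:**
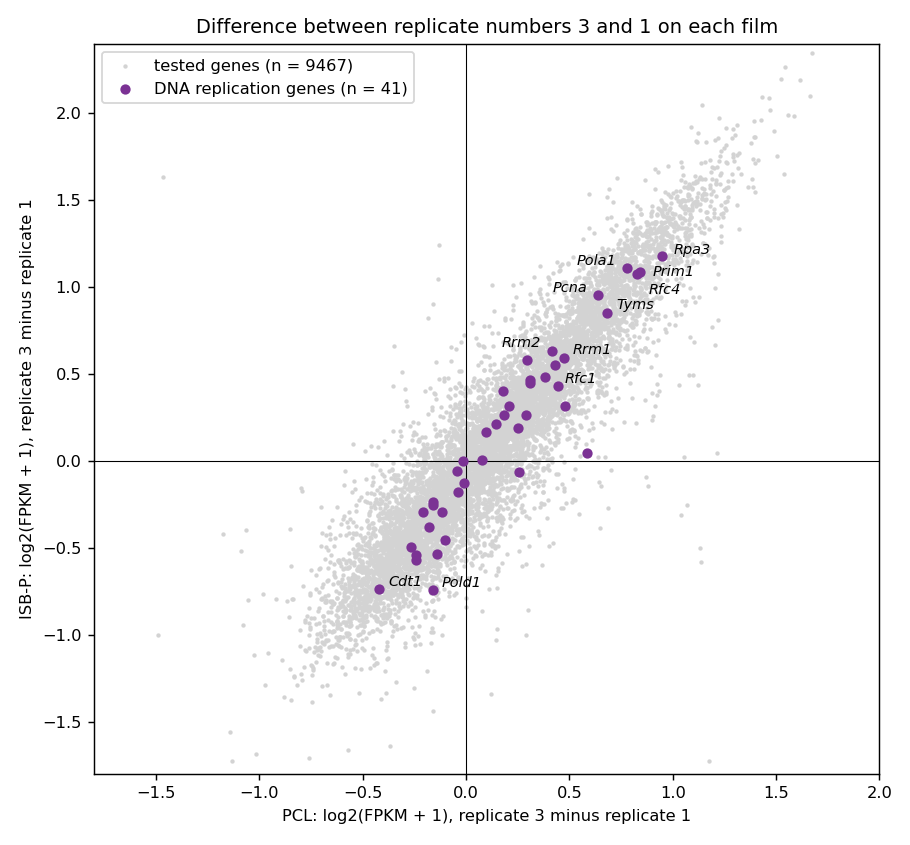
Difference between the libraries numbered 3 and 1 on PCL (horizontal) and on ISB-P (vertical), log2(FPKM + 1); grey points are the 9467 tested genes, of which 9 lie outside the axes, and purple points the 41 replication genes, with those of a mean difference over 0.44 named. The purple points run along the same diagonal as the grey ones, from Cdt1 and Pold1 at the lower left to Rpa3 at the upper right.

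Ratios of 2 genes within a library do not change when the whole library is scaled by a single factor, as in upper quartile or common-total scaling. Quantile normalization can change them. These pairs were chosen after the values were seen. Cdt1 over geminin was 0.715 on TCP, 0.711, 0.710 and 0.419 on PCL and 0.989, 0.915 and 0.473 on ISB-P, so the TCP ratio was that of PCL replicates 1 and 2 while both genes were lower in level. Pola1 over Pola2 was 0.600 on TCP, 0.671, 0.943 and 1.38 on PCL and 0.839, 1.38 and 3.03 on ISB-P. Rpa3 over Rpa1 was 1.41 on TCP, 0.996, 1.33 and 1.77 on PCL and 1.15, 1.45 and 2.29 on ISB-P. Both ratios were higher in the libraries numbered 3 than in those numbered 1 on both films. Mcm2 over Mcm4, also partners in 1 complex, ran the other way, at 0.766 on TCP, 0.605, 0.444 and 0.407 on PCL and 0.554, 0.401 and 0.264 on ISB-P. Rfc4 over Rfc2 was 0.873 on TCP and between 1.48 and 3.48 on the films. Rrm2 over Rrm1 was 0.874 on TCP, 1.73, 1.94 and 1.66 on PCL and 1.68, 1.85 and 1.72 on ISB-P, and was highest at number 2 on both films.

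**Figure D5:**
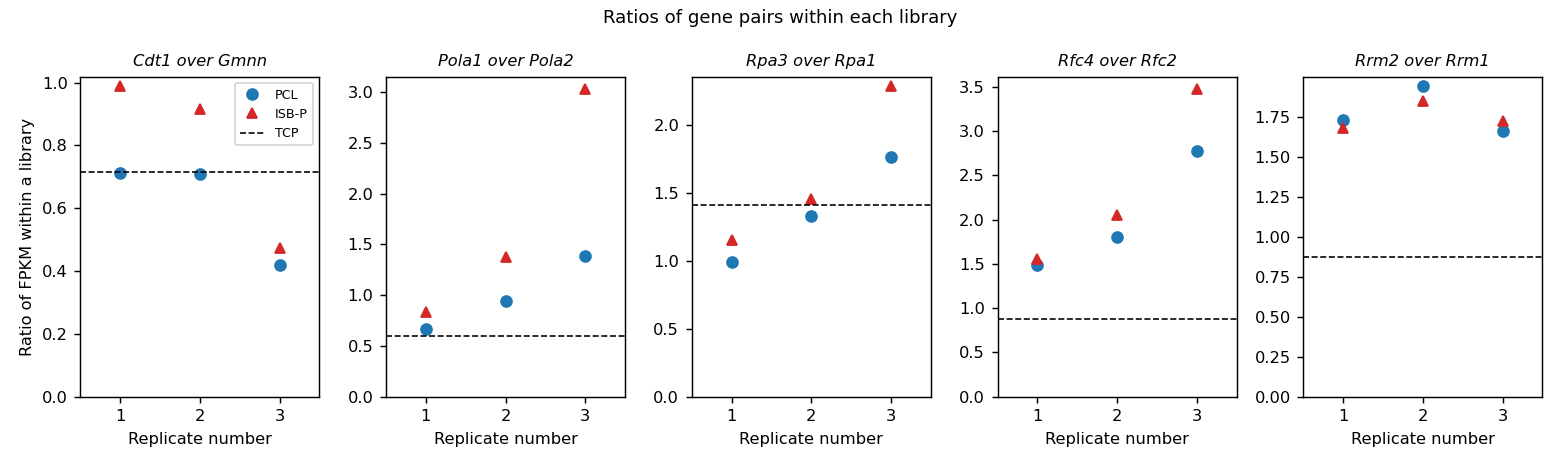
Ratio of the FPKM of 2 genes within a library, by replicate number, for PCL (circles) and ISB-P (triangles), with the TCP library as a dashed line; each panel has its own axis from 0. Cdt1 over Gmnn is lowest at number 3 on both films, Pola1 over Pola2, Rpa3 over Rpa1 and Rfc4 over Rfc2 are highest there, and Rrm2 over Rrm1 lies between 1.66 and 1.94 on the films and at 0.874 on TCP.

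Other genes of the cell cycle were counted from lists written for this comparison. Over all 9467 tested genes, 5.25% were more than 2-fold lower on TCP than on PCL, and 293 genes were more than 2-fold higher. Of 57 other replication and S phase genes, 45 had values and were tested, and 26 of the 45 were more than 2-fold lower on TCP than on PCL, with a median of -1.30 on the log2 scale. The largest of these differences were in the histone chaperone Asf1b (2.37 FPKM on TCP, 23.0 to 25.2 FPKM on PCL), the S phase cyclin Ccna2 (8.53 and 54.0 to 77.6 FPKM) and the dUTPase Dut (12.8 and 67.8 to 97.8 FPKM). All 23 mitosis genes with values were more than 2-fold lower on TCP, with a median of -2.75, led by Cdk1, the kinase that starts mitosis, at 9.28 FPKM on TCP and 77.9 to 111 FPKM on PCL, and its cyclins Ccnb2 and Ccnb1. Of the 11 G1 cyclins, kinases and inhibitors, 1 was more than 2-fold lower on TCP, Cdkn2c, an inhibitor of the G1 kinases, and 1 was more than 2-fold higher, the inhibitor Cdkn2a (114 FPKM on TCP, 47.1 to 65.0 FPKM on PCL), with a median of 0.27. None of the 10 tested stem cell markers was more than 2-fold lower on TCP and 1 was more than 2-fold higher, Vcam1 (32.8 FPKM on TCP, 11.2 to 18.6 FPKM on PCL), with a median of 0.23.

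Between the films 0 genes of these lists were called by limma without the block, beside 1.72% of all tested genes. At an unadjusted p under 0.05 in that test were 0 of the 45 replication and S phase genes, 1 of the 23 mitosis genes and 3 of the 11 G1 genes. Over all tested genes, 1145 of 9467 were under that limit. With the block, 24.4% of all tested genes were called, 1228 of 9467 higher and 1079 lower on ISB-P, so calls in these lists are not particular to them. Of the 45 replication and S phase genes, 6 were called higher and 1 lower. The largest difference was that of Ccne2, a cyclin of the G1 to S transition, at 0.62 (adjusted p = 0.0099 by limma). Of the mitosis genes, Nusap1 and Prc1, which bind spindle microtubules, were called higher and the mitotic regulators Plk1 and Cdc20 lower with the block. Of the G1 genes, the inhibitor Cdkn2b was called higher and the D-type cyclins Ccnd1 and Ccnd3 and the inhibitors Cdkn1b and Cdkn2c lower. By replicate number, 31 of the 45 replication and S phase genes were called higher at number 3 and 6 lower, with a median of 0.59, beside 17 and 7 of the 41 genes with a median of 0.22. Over all tested genes 37.2% were called higher and 21.2% lower, with a median of 0.09. The largest differences among the 45 were the histone chaperone Asf1a at 1.63 and the ORC subunit Orc4 at 1.37 (both with an adjusted p of 0.00057 by limma) and Ccne2 at 1.36 (adjusted p = 0.00072 by limma). Of the 23 mitosis genes, 16 were called higher at number 3 and 1 lower, with a median of 0.45, and of the 11 G1 genes 2 were called in each direction. The tested stem cell markers had 5 calls higher and 3 lower at number 3, and 2 lower on ISB-P with the block (Pdgfra and Pdgfrb, receptors for platelet-derived growth factor), and the 6 tested haematopoietic markers had 2 higher and 1 lower by number, and with the block Lyz2 higher and Cd14 lower on ISB-P.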

How the data were processed

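RNA-seq libraries (TruSeq Stranded mRNA, paired ends) of rMSCs were analysed from 3 surfaces, with groups and replicate numbers taken from the sample labels. Per the submitters' processing notes the tools were bcl2fastq 2.20.0.422, cutadapt 1.18, TopHat2 2.0.13 and Cuffdiff 2.2.1 with genome build rn5, and the methods name ExDEGA. The annotation, the strand setting and the handling of reads with several matches are not given in the sources used here. The authors deposited 1 value per gene symbol and library, in FPKM, without read counts, so the depth is unknown, no counting interval is given and precision rests on the spread between libraries.

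Values were used as deposited. A gene was tested if 3 or more of the 6 film libraries had 1 FPKM or more. Tests were two-sided and used log2(FPKM + 1) in limma 3.58.1 under R 4.3.3 (lmFit, then eBayes with trend). P-values were adjusted by Benjamini-Hochberg over all genes that passed this filter, with a threshold of 0.05. Differences on this scale understate the change of genes with low values. ISB-P was compared with PCL both without a block and with the number as a block, and the number was tested by a moderated F test beside the film. Same-numbered libraries deviated together over all tested genes (r = 0.887, 0.431 and 0.867), which is above the 0.1 required in every pair, so calls that the block changes are given beside the others. TCP has 1 library here and no test, while the paper gives n = 3 for its RNA-seq. Intervals are 95% confidence intervals of the fitted difference.

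The replication genes and the other lists were written from textbook roles, with earlier results of these data known. Values in every library are given for genes called between the films, for the most abundant gene of each role and for those with the largest difference by film and by number, and otherwise ranges. Pola1, Gins1 and Rfc1 were added after their values were seen. Of the other lists, the 3 genes with the largest difference in a comparison are named, and called genes where they are few. Promoter windows came from RefSeq (GRCr8), and no coordinates of rn5 were used. Alternatives were upper quartile, quantile and common-total scaling, a pseudocount of 0.1, other filters (none, or 5 FPKM), each replicate left out in turn, TCP in the fit, a fold change over 2 with p under 0.1, and the number 3 against 1 contrast alone. The block with each replicate left out was added after seeing the data. The fits were tested on simulated data with known changes. Without the block, the film fit recovered 0% of changes of 0.5 and 40.3% of changes of 1 (log2), so small differences can go uncalled. With the block it recovered 56.7% and 88.1%, and the fit by number 7.46% and 68.7%. False calls numbered 0, 3 and 1 in these fits. Each size of change was given to 67 of 9467 genes. In the deposited values 2307 genes were called with the block and 5527 by number. Recovery with so many differing genes was not tested, so these percentages are not rates for those calls. Plots were made in Python 3.11.15 (matplotlib 3.10.9).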

Additional observations from a re-analysis of the deposited data

How the results depend on the processing

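The number of replication genes called between ISB-P and PCL was 0 in every alternative without the replicate number and 4 with the replicate block, which changed no other call between these films among the 41 genes. With the block and 1 library left out, an alternative chosen after seeing the data, 3 to 9 genes were called, beside 18.4% to 33.1% of all tested genes. Their median difference between the films was 0.0317 with upper quartile scaling, 0.0374 with quantile normalization and -0.0342 with a common total, and with each replicate left out in turn it ranged from -0.0108 (without ISB-P replicate 3) to 0.122. By replicate number, 24 genes were called, and leaving out each replicate in turn gave 15 to 33. Those higher at number 3 were 9 with upper quartile scaling and 9 with a common total, and 12 to 20 with a replicate left out. Those lower at number 3 were 13 with upper quartile scaling, 14 with quantile normalization, 13 with a common total, 3 with no filter on low values and 1 to 13 with a replicate left out. The median difference by number was 0.0381, 0.0638 and 0.0790 under those 3 scalings, 0.23 with a pseudocount of 0.1 and 0.18 to 0.22 with a replicate left out. Against TCP the median was -1.77 for PCL with a pseudocount of 0.1, and for ISB-P -1.96 with that pseudocount and -1.54 with a common total. The genes more than 2-fold lower on TCP numbered 37 to 39 against PCL and 35 to 38 against ISB-P over all settings tried. Depth is unknown, and with 3 libraries per film the 95% interval without the block reached past 2-fold for 3 genes. Single genes were recomputed for the 4 genes called between the films and for 16 of the 24 genes called by number. The 16 were those with the largest differences by number in each role, so a change of sign was unlikely in advance. No difference of these genes changed sign, and 29 of the recomputed values by number lost their call, the cause of which was not tested.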
